A study of Mus musculus with 2 samples.

Results

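Among the microRNAs (miRNAs) profiled in mouse liver, the set described here comes from 8 imprinted hairpins, mir-337, mir-540, mir-665, mir-431, mir-433, mir-127, mir-434 and mir-136, that lie next to or antisense to the gene Rtl1. Members were all rows of the deposited table whose hairpin is one of these 8. That table lists only miRNAs with a fold of at least 2 on the authors' own scale. Beyond that listing, the rule used no measured value. It found 11 mature strands among the 281 listed. Small RNA was sequenced from a liver labelled DICER1 mutant and from a wild-type liver, both of C57BL/6 mice aged 3 months, with 1 library per genotype. The column headers call the mutant hDICER1_Mut. The variant, the promoter or cell type that drives it, and the tumour or non-tumour state of the mutant piece are missing from the labels. The series text, which names both normal liver and liver cancer, does not settle that state.

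A miRNA hairpin is cut by the enzyme Dicer into a strand from its 5′ side (5p) and a strand from its 3′ side (3p). The RNase IIIb domain of Dicer releases the 5p strand and the RNase IIIa domain the 3p strand. The Dlk1-Dio3 region on mouse chromosome 12 is imprinted: its noncoding RNAs, these hairpins among them, are made from the maternal chromosome, while the protein-coding genes Dlk1, Rtl1 and Dio3 are made mainly from the paternal one. In the mouse, several of these miRNAs match the Rtl1 mRNA perfectly and direct its cleavage, and Rtl1 is needed for the placenta. The region is active in the embryo and placenta and largely quiet in adult liver. It is also known as a place where viral vector insertions have been found in mouse liver tumours.

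The hairpins lie on the plus strand within 9.60 kb of chromosome 12 (chr12:109585789-109595388, GRCm38, the same assembly as mm10). Of the 8, 5 (mir-431, mir-433, mir-127, mir-434 and mir-136) lie entirely inside the Rtl1 coding sequence, on the opposite strand, in the GENCODE M21 annotation. The other 3 lie beyond the 3′ end of that Rtl1 model, the nearest, mir-665, by 2785 bases. All 8 fall inside the longer span that RefSeq gives for Rtl1 (chr12:109564900-109604418). The label antisense to Rtl1 therefore held for 5 hairpins in GENCODE and for 8 by the RefSeq span. The hairpins mir-337 and mir-136 overlap mir-3544 and mir-3071 on the minus strand, and the sources used here do not say whether reads were counted by strand.

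Both strands were listed for mir-127, mir-434 and mir-337 and a single strand for the other 5 hairpins. The 5 further annotated strands are not analysed here. All 11 listed strands matched a mature sequence in RefSeq (GRCm38.p6). They are shown because the seed, bases 2 to 8 in capitals, sets which mRNAs a strand can pair with.
miR-127-3p: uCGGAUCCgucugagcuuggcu
miR-127-5p: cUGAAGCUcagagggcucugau
miR-136-3p: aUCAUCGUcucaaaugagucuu
miR-434-3p: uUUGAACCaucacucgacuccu
miR-434-5p: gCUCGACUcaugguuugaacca
miR-431-5p: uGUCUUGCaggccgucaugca
miR-433-3p: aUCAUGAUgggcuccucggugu
miR-337-3p: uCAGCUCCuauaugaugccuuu
miR-337-5p: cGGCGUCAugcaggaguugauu
miR-540-3p: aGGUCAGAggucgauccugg
miR-665-3p: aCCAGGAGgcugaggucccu

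The strands were 20 to 22 bases long with a GC content of 36.4% to 65.0%, and carried 11 distinct seeds. Shared genomic origin was thus not matched by a shared seed. A search of the RefSeq mature miRNAs found the same seed elsewhere for 1 of them, miR-540-3p, in miR-6915-5p. The longest stretches shared between listed strands were 9 bases, in miR-337-5p with miR-431-5p and in the 5p with the 3p strand of mir-434. No strand had counts within 5% of another listed miRNA's in both libraries, the sign used here of names that share reads. The first base was A or U in all 7 listed 3p strands and in 1 of the 4 listed 5p strands. Over all listed strands with a RefSeq sequence, 72.2% of the 3p strands and 73.0% of the 5p strands began with A or U.

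The Rtl1 transcript in GENCODE holds 1 fully complementary site for each of 7 listed strands, those of the 5 hairpins antisense to it, and all 7 sites are in the coding sequence. The other 4 strands had no such site in it. The sites of the 3 most abundant strands are printed on the minus strand of GRCm38, with the bases opposite the seed in capitals, at chr12:109592888-109592909 for miR-127-3p, chr12:109595366-109595387 for miR-136-3p and chr12:109594565-109594586 for miR-434-3p.
Rtl1 site of miR-127-3p: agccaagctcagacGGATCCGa
Rtl1 site of miR-136-3p: aagactcatttgagACGATGAt
Rtl1 site of miR-434-3p: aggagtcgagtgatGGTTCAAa

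These sites begin at codon 832, 6 and 273 of the 1744 codons of Rtl1. The level of the Rtl1 mRNA is not measured by small RNA libraries.

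The libraries held 18480608 reads in the mutant and 11432192 in the wild type, as implied by the deposited RPM (reads per 1000000 reads of the library). At these depths 3 reads, the limit that a count of 0 allows, are 0.162 RPM in the mutant and 0.262 RPM in the wild type. Only miRNAs with a fold of at least 2 on the authors' own scale are listed, and by RPM the lowest listed miRNA among those the authors' deposited table gives as higher was 4.78-fold higher. A member listed as higher therefore had to lie well above equality by RPM, and its direction is not a result. With 1 library per genotype no test was possible and no p-value is given. Genotype, animal, piece of tissue and library coincide and cannot be told apart. Intervals are exact 95% intervals unless named otherwise and cover counting error only.

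All 11 strands had a higher RPM in the mutant liver. Together they took 4.65% of all mutant reads (859245 reads), against 0.0707% of all wild-type reads (8077 reads), which is 65.8-fold more with an interval of 64.4 to 67.3. The mutant level rested mainly on miR-127-3p, and without it the other 10 strands summed to 2878 RPM in the mutant and 118 RPM in the wild type, a 24.5-fold difference (interval 23.2 to 25.8). In a piece of liver, more cells that carry these miRNAs and more miRNA per cell cannot be told apart. A strand was called higher when it was at least 2-fold higher with an interval that excludes equality. Of the 276 listed miRNAs with at least 10 reads, 62.0% were called higher, against all 11 members. The listing itself largely fixes the call of any member that it gives as higher. The size of each fold depends on the scaling: relative to RPM, ratios are 0.419 times as large on the authors' scale, 0.368 times with edgeR's TMM factors and 0.151 times with DESeq2 size factors. On the last of these scales 8 of the 11 members stayed called, and miR-127-5p, miR-434-5p and miR-431-5p did not. The 62.0% above is by RPM, and the share of all listed miRNAs called on that last scale is not given here.

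**Figure D1:**
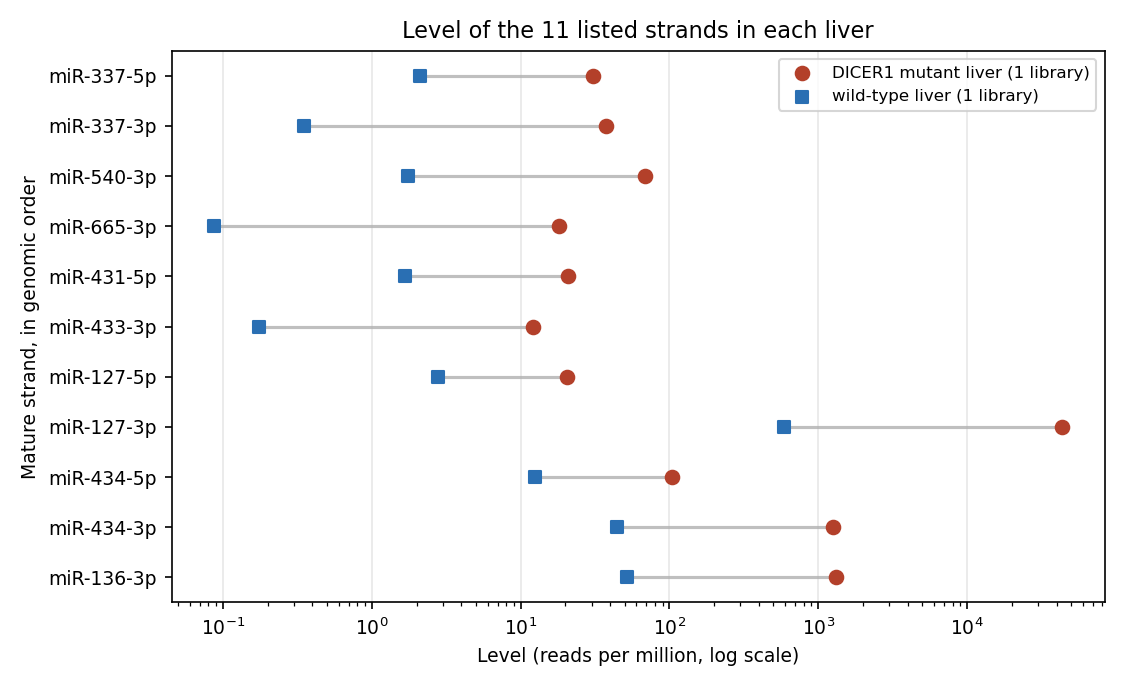
Level of each listed strand in RPM on a log axis, with the DICER1 mutant liver as circles and the wild-type liver as squares (1 library each), strands in genomic order. Every circle lies right of its square, and miR-127-3p stands apart in both livers at 43617 RPM in the mutant and 589 RPM in the wild type.

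Of the hairpins antisense to the Rtl1 coding sequence, mir-127 gave the most reads. Its 3p strand, which in the mouse guides cleavage of Rtl1, had 806063 reads (43617 RPM) in the mutant and 6732 reads (589 RPM) in the wild type. That was 74.1-fold higher (interval 72.3 to 75.9). miR-127-3p alone made up 4.36% of mutant reads and 0.0589% of wild-type reads. It ranked 3 among the 281 listed miRNAs in the mutant and 29 in the wild type. The partner strand miR-127-5p had 377 reads (20.4 RPM) in the mutant and 32 reads (2.80 RPM) in the wild type, a 7.29-fold difference (interval 5.07 to 10.8). On the authors' scale it was 3.05-fold higher, and with DESeq2 size factors its log2 ratio of 0.14 had an interval of -0.38 to 0.71 that included equality. The intervals of the strands of this hairpin did not overlap, a contrast that scaling does not move.

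The next most abundant strands came from mir-136 and mir-434, at the end of Rtl1 that holds its start codon. miR-136-3p had 24181 reads (1308 RPM) in the mutant and 592 reads (51.8 RPM) in the wild type, 25.3-fold higher (interval 23.3 to 27.5). miR-434-3p had 23225 reads (1257 RPM) in the mutant and 507 reads (44.3 RPM) in the wild type, 28.3-fold higher (interval 25.9 to 31). The intervals of these neighbouring strands overlapped, and both lay below that of miR-127-3p. miR-434-5p had 104 RPM in the mutant and 12.6 RPM in the wild type, 8.27-fold higher (interval 6.98 to 9.86).

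The remaining antisense hairpins were rare. miR-431-5p, which in mouse muscle progenitors is known to repress Pax7, had 382 reads (20.7 RPM) in the mutant and 19 reads (1.66 RPM) in the wild type. Its ratio of 12.4 had an interval of 7.85 to 20.9. miR-433-3p had 225 reads (12.2 RPM) in the mutant and 2 reads (0.175 RPM) in the wild type, a ratio of 69.6 (interval 19.0 to 578). With 2 wild-type reads the size of that ratio was poorly fixed.

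The 3 hairpins beyond the 3′ end of the GENCODE Rtl1 model, within 0.525 kb of each other by their starts, were rare as well. miR-337-3p had 693 reads (37.5 RPM) in the mutant and 4 reads (0.350 RPM) in the wild type, a ratio of 107 (interval 41.7 to 394). miR-337-5p had 563 reads (30.5 RPM) in the mutant and 24 reads (2.10 RPM) in the wild type, a ratio of 14.5 (interval 9.65 to 22.8). Of the 3 hairpins with both strands listed, mir-337 had the most even strands in the mutant. miR-540-3p had 1276 reads (69.0 RPM) in the mutant and 20 reads (1.75 RPM) in the wild type, a ratio of 39.5 (interval 25.4 to 64.8). miR-665-3p had 335 reads (18.1 RPM) in the mutant and 1 read (0.0875 RPM) in the wild type, and its ratio of 207 had an interval of 36.9 to 8209. The ratios of these hairpins, 14.5 to 207, overlapped those of the antisense ones, 7.29 to 74.1, as the map of ratios along the hairpins shows.

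**Figure D2:**
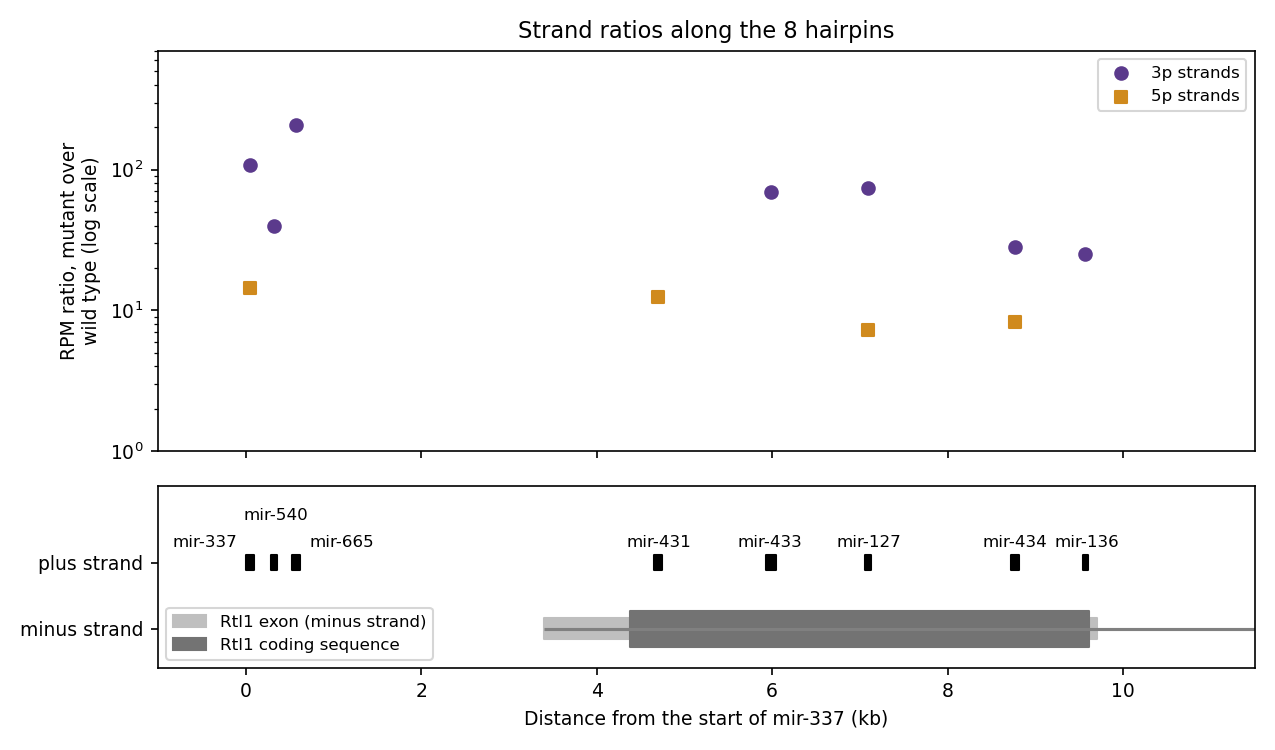
Top, RPM ratio of mutant over wild type (log axis) for each listed strand against the distance of its hairpin from the start of mir-337 in kb, with 3p strands as circles and 5p strands as squares. Bottom, the 8 hairpins on the plus strand above the GENCODE Rtl1 exon and coding sequence on the minus strand, with 5 hairpins over the coding sequence and 3 outside it. Every 3p strand, at 25.3 or more, lies above every 5p strand, at 14.5 or less.

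The order of levels was similar in both livers at the top and uncertain at the bottom. miR-127-3p, miR-136-3p, miR-434-3p and miR-434-5p came in this order in the mutant and in the wild type, and each differed from the next beyond counting error. miR-127-3p had 33.3 times the reads of miR-136-3p in the mutant and 11.4 times in the wild type. In the mutant, the neighbours miR-431-5p and miR-127-5p (382 and 377 reads) could not be told apart, nor could miR-127-5p and miR-665-3p. In the wild type, miR-127-5p, miR-337-5p, miR-540-3p and miR-431-5p, with 32 to 19 reads, could not be told apart from their neighbours in that order, and neither could the 3 strands with 4, 2 and 1 reads. These are orders of reads per library. Strands differ little in length, and how well each was captured by the library kit was not tested.

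Within the members' own reads, a comparison that no library scaling can move, miR-127-3p took a larger share in the mutant. It held 93.8% of the members' reads in the mutant (interval 93.8 to 93.9) and 83.3% in the wild type (interval 82.5 to 84.2). miR-136-3p held 2.81% in the mutant and 7.33% in the wild type, and miR-434-3p 2.70% in the mutant and 6.28% in the wild type. With miR-127-3p left out, the share of miR-136-3p was 45.5% in the mutant and 44.0% in the wild type, and the ratio of these shares, 1.03, had an interval of 0.952 to 1.12 that included equality. The share of miR-434-5p was then 3.62% in the mutant and 10.7% in the wild type. Each of the 4 5p strands had a smaller share in the mutant among these 10 strands, with an interval that excluded equality.

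**Figure D3:**
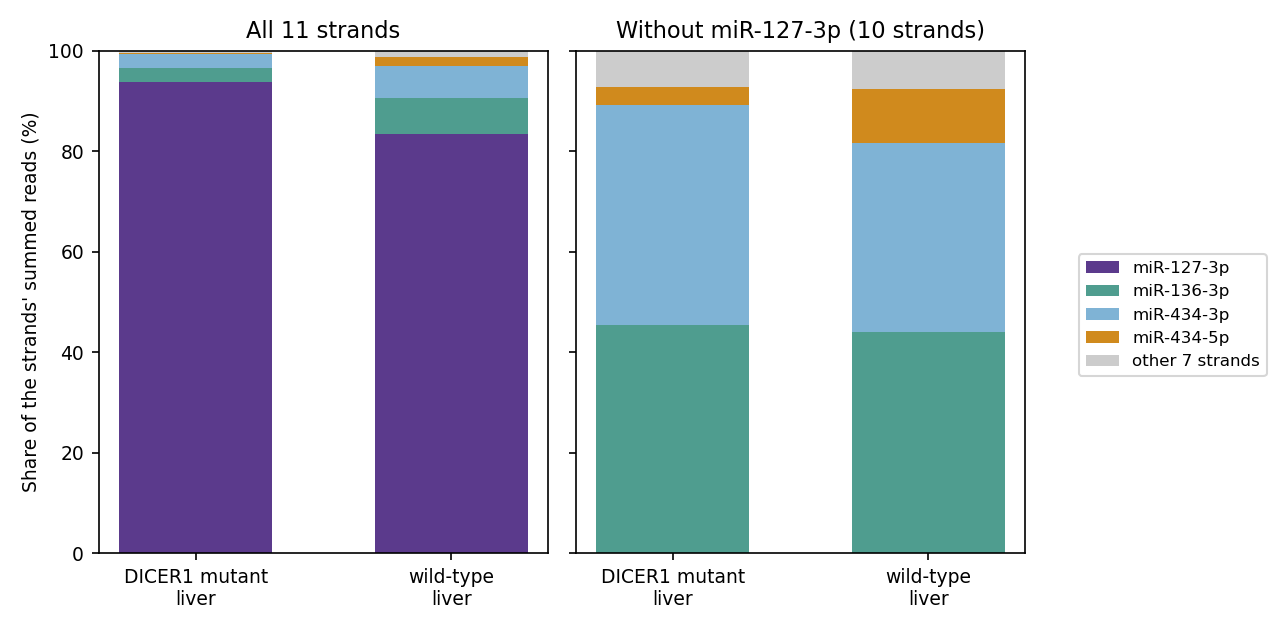
Share of the strands' summed reads in percent, as stacked bars, for the DICER1 mutant liver (left) and the wild-type liver (right), with all 11 strands in the first panel and without miR-127-3p in the second. miR-127-3p holds 93.8% in the mutant and 83.3% in the wild type, and in the second panel miR-434-5p holds 3.62% in the mutant and 10.7% in the wild type.

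The members' ratios separated by strand. The 4 listed 5p strands were 7.29-fold to 14.5-fold higher in the mutant, and the 7 listed 3p strands 25.3-fold to 207-fold, so the ranges did not overlap. For 6 of the 7 3p strands the lower bound of the interval lay above the highest upper bound of any 5p strand, 22.8, and the exception was miR-433-3p with its 2 wild-type reads. With 0.5 reads, scaled to the library, added to each count, median log2 ratios were 5.87 for the 3p strands and 3.33 for the 5p strands. Summed, the 3p strands had 46319 RPM in the mutant and 687 RPM in the wild type (67.4-fold), and the 5p strands 176 RPM in the mutant and 19.2 RPM in the wild type (9.17-fold). Without miR-127-3p the 3p sum was 27.4-fold higher (interval 25.9 to 29.1), still above the 5p interval of 8.0 to 10.6. A strand with a smaller difference may not be listed, and miR-431-3p is among the unlisted strands, so both ranges describe listed strands only.

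**Figure D4:**
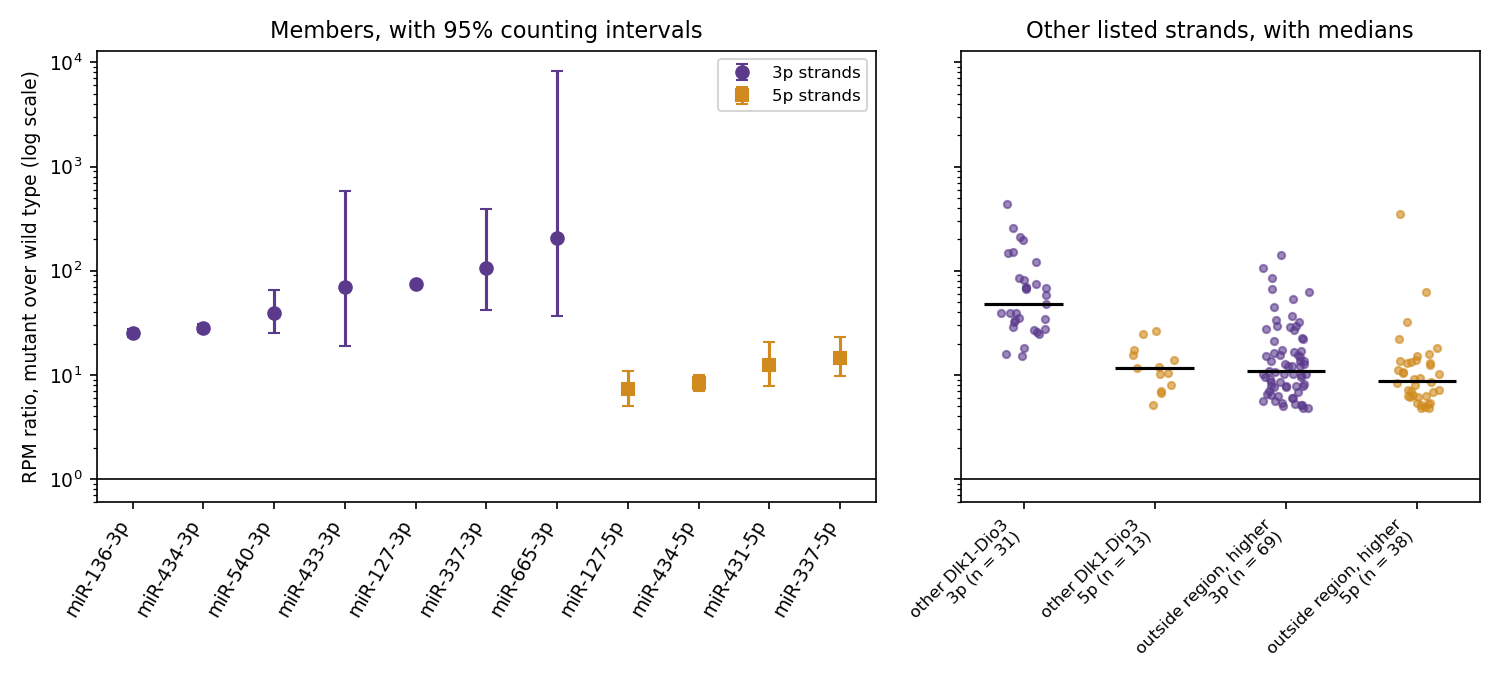
RPM ratio of mutant over wild type on a log axis, left for the 11 members with exact 95% counting intervals and right for other listed strands of the Dlk1-Dio3 region and for strands outside it that were called higher, with a bar at each median. Violet marks 3p strands and ochre 5p strands. Among the members the 3p strands lie between 25.3 and 207 and the 5p strands between 7.29 and 14.5.

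The same contrast was seen within hairpins, where no scaling enters, in mir-127, mir-434 and mir-337. Their hairpins are shown to mark where the strands end, with both mature strands in capitals (RefSeq, GRCm38.p6, plus strand, chr12:109592846-109592915, chr12:109594506-109594599 and chr12:109585789-109585885). The inner ends of the capitals are the sites of Dicer cutting as annotated.
mir-127: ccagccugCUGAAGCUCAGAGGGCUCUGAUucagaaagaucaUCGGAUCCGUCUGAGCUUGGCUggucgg
mir-434: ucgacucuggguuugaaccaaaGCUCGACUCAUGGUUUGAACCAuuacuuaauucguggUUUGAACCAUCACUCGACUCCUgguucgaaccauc
mir-337: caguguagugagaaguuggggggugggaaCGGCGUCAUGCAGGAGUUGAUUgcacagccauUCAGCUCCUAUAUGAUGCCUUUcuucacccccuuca

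The annotated gap between the strands was 12 bases in mir-127, 15 in mir-434 and 10 in mir-337, within the 10 to 30 bases over all 8 hairpins. In mir-127 the 5p strand made up 0.0467% of the hairpin's reads in the mutant (interval 0.0421 to 0.0517) and 0.473% in the wild type (interval 0.324 to 0.667). In mir-434 it made up 7.65% in the mutant (interval 7.33 to 7.99) and 22.1% in the wild type (interval 19.0 to 25.5). The 5p share was thus lower in the mutant in a hairpin that is almost wholly 3p and in a more balanced one. In mir-337 the 5p strand made up 44.8% in the mutant (interval 42 to 47.6) and 85.7% in the wild type (interval 67.3 to 96.0). The wild-type value rests on 28 reads. Its more abundant strand was therefore the 3p strand in the mutant and the 5p strand in the wild type.

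**Figure D5:**
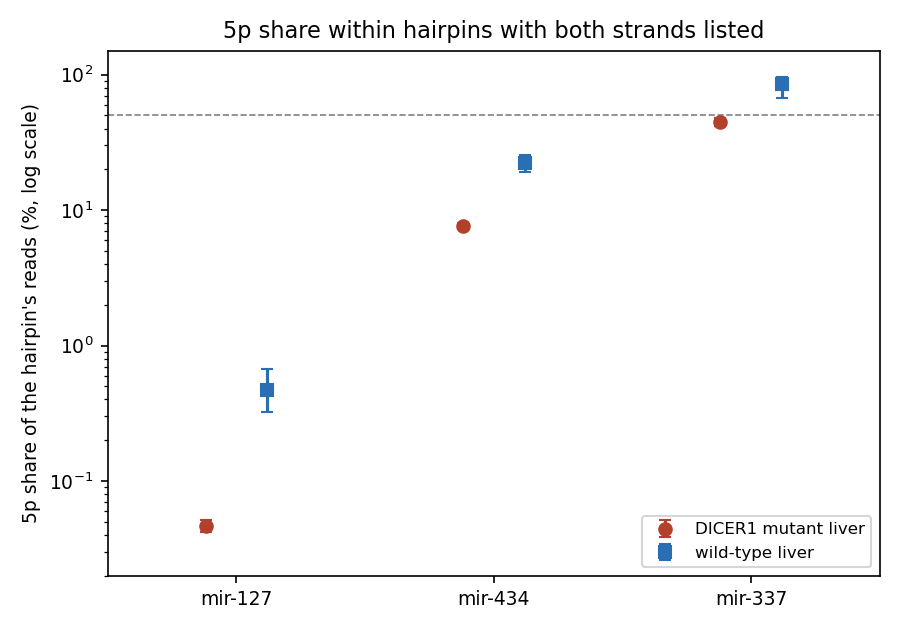
Share of the 5p strand in the reads of each hairpin with both strands listed, in percent on a log axis, for the DICER1 mutant liver (circles, left) and the wild-type liver (squares, right), with exact 95% counting intervals and a dashed line at 50%. The mutant lies below the wild type in all 3 hairpins, and mir-337 crosses the line.

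Taken as a log2 ratio, mutant over wild type, the odds of a 5p read rather than a 3p read gave -3.37 in mir-127 (interval -3.88 to -2.85). This log2 odds ratio was computed after adding 0.5 reads to every count, with Woolf's normal 95% interval. The log2 odds ratio was -2.74 in mir-337 (interval -4.20 to -1.29) and -1.78 in mir-434 (interval -2.05 to -1.51). The interval of mir-434 did not overlap that of mir-127, so the size of the shift differed among the hairpins. For a background, copies of a hairpin, such as those of mir-26a, were pooled under 1 name, and mir-199a and mir-199b carried the same 3p counts. Over all 62 listed hairpin names with both strands, 56.5% had a lower 5p share in the mutant with an interval excluding equality, and the median log2 odds ratio was -0.53. The 3 members were all among these and their median was -2.74.

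Set beside the rest of the Dlk1-Dio3 region, taken as the hairpins between the start of Meg3 and the end of Mirg, the members held most of the reads through miR-127-3p. They took 81.7% of the region's listed reads in the mutant (interval 81.6 to 81.8) and 66.8% in the wild type (interval 66.0 to 67.7). miR-127-3p alone took 76.7% of the same reads in the mutant and 55.7% in the wild type. With miR-127-3p left out of both sums, the other 10 members held 21.7% in the mutant and 25.1% in the wild type. The 44 other listed strands of the region summed to 10406 RPM in the mutant and 351 RPM in the wild type, 29.7-fold higher (interval 28.8 to 30.6). That interval overlapped neither the members' 65.8-fold nor, with miR-127-3p left out, their 24.5-fold. These sums depend on the mix of strands, since 2943 of the 4008 wild-type reads of the other 44 were 5p. The other 31 listed 3p strands summed to 92.01-fold higher (interval 86.6 to 97.8), above the members' 3p sum at 67.4-fold. The other 13 listed 5p strands summed to 7.13-fold higher (interval 6.863 to 7.402), below the members' 5p sum at 9.17-fold. Strand by strand, the medians had overlapping intervals. The median log2 ratio was 4.82 for the members (order-statistic interval 3.04 to 6.61) and 4.98 for the other 44 (interval 4.45 to 5.41), against 2.74 for all 276 listed miRNAs with at least 10 reads.

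The split by strand was present in the rest of the region too. There the 31 listed 3p strands had a median log2 ratio of 5.41 and the 13 listed 5p strands 3.52, with 4 of the 5p strands above the lowest 3p strand. Of 11 other hairpins with both strands listed, 7 had a lower 5p share in the mutant with an interval excluding equality and none a higher one, with a median log2 odds ratio of -1.77. The names mir-299a and mir-299b among these carry nearly equal counts. Outside the region, strands called higher had median log2 ratios of 3.43 for 69 3p strands and 3.12 for 38 5p strands. A lower 5p share was not confined to the region. Of 48 hairpin names outside it with both strands listed, copies pooled, 25 had a lower 5p share in the mutant and 2 a higher one, with a median log2 odds ratio of -0.25. For 4 of these the estimated shift was at least as large as that of mir-127. They were mir-1247 (-7.06), mir-99a (-3.73), mir-26a (-3.71) and mir-34a (-3.48), singled out after their values were seen. Only the interval of mir-1247 (-7.94 to -6.18) lay clear of that of mir-127, and those of mir-99a, mir-26a and mir-34a overlapped it. The mir-34a value rested on 1 wild-type 3p read. These listed miRNAs are not independent replicates.

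Nearness to miR-127-3p was taken on log2 ratios with 0.5 reads, scaled to the library, added to each count. The 3 nearest listed miRNAs with at least 100 reads over the 2 libraries were miR-410-3p, miR-329-3p and miR-1193-3p, all of the Dlk1-Dio3 region. miR-410-3p had 753 RPM in the mutant and 10.1 RPM in the wild type, a ratio of 74.9 (interval 62.3 to 90.8). The other 2 rested on 3 and 2 wild-type reads, with ratios of 84.7 (interval 28.8 to 413) and 81 (interval 22.2 to 673). By ratios without added reads, miR-496a-3p of the same region, at 69.8, lay nearer to miR-127-3p than these 2.

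Markers of liver cells and of other cell types were read against the 62.0% of listed miRNAs called higher. The hepatocyte miRNA miR-122-5p was present in both libraries, at 7303 RPM in the mutant and 14951 RPM in the wild type. Listed strands of 4 of 4 hepatocyte hairpin names summed to 163838 RPM in the mutant and 407372 RPM in the wild type, with 3 of 6 strands called lower and 0 higher. Those of 7 of 11 blood cell names summed to 10472 RPM in the mutant and 1943 RPM in the wild type, and 11 of their 11 strands were called higher. These names were miR-142a, miR-150, miR-155, miR-15b, miR-16 (only miR-16-2-3p), miR-223 and miR-342. The blood cell names miR-144, miR-451a, miR-486a and miR-146a were not listed, so the values do not speak for them. Listed strands of 3 of 8 endothelial and mesenchymal names, miR-199a, miR-199b and miR-214, summed to 12339 RPM in the mutant and 966 RPM in the wild type. Of their strands 5 of 5 were called higher, where miR-199a-3p and miR-199b-3p, which have identical counts, were counted once. From the same list miR-126a, miR-143, miR-145a, miR-10b and miR-424 were not listed, so these values do not speak for endothelial cells. For biliary and epithelial markers, 8 of 8 names were listed, with 8 of 11 strands called higher, a share near that background, and sums of 5910 RPM in the mutant and 2105 RPM in the wild type. The neuroendocrine list, with miR-7a-1-3p and then miR-375-3p, summed to 85.8 RPM in the mutant and 11.8 RPM in the wild type, and both were called higher. For muscle, 1 of 3 names was listed, at 2.22 RPM in the mutant and 3.59 RPM in the wild type, and for germ and pluripotent cells 1 of 8, at 0.541 RPM in the mutant and 0.787 RPM in the wild type, and neither was called in either direction. No listed marker was at 0, and the unlisted names are not analysed here. The part of these cell types in the members' difference was not tested.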

How the data were processed

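Small RNA libraries from total liver RNA (SMARTer smRNA-seq kit, single-end) were, per the labels' protocols, mapped to mm10 and miRBase 22.1 and assigned to a 5p or 3p strand. Sequencer models differ between the labels and the series description. The submitters' processing notes name cutadapt with no version. Aligner, counting rule and molecular identifiers are not stated in those notes or labels. The authors deposited raw read counts and RPM values per mature miRNA, log2 values that were matched by scaling RPM with a factor per library (0.611 in the mutant, 1.46 in the wild type) and adding 1, a signed fold score and p-values. The authors' p-values rest on 2 libraries and were not used.

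Library totals (18480608 mutant, 11432192 wild type) were taken from count divided by RPM, and the 281 listed rows hold 61.2% and 81.8% of them. RPM ratios have exact conditional binomial (Clopper-Pearson) intervals, and log2 ratios a pseudocount of 0.5 reads. Rows needed at least 10 reads. PCR copies are not independent molecules. The members, lists and the naming rule (every listed member strand, the 3 nearest miRNAs, miR-122-5p and miR-192-5p as liver markers) were chosen with earlier results of these data known. miR-192-5p was at 117503 RPM in the mutant and 326657 RPM in the wild type. Alternatives were other scalings (edgeR 4.0.16 TMM, DESeq2 1.42.0 size factors), pseudocounts, minimums and fold limits. Calculations (Python 3.11.15, scipy 1.17.1) were checked on simulated counts. Coordinates come from GENCODE M21 and RefSeq on GRCm38.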

Additional observations from a re-analysis of the deposited data

How the results depend on the processing

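All 11 members stayed at least 2-fold higher with TMM factors and with other pseudocounts. Other minimums removed no member and so tested nothing for them. Members listed as higher had to pass on the authors' scale, where the listing requires a fold of at least 2. They also had to pass a 4-fold limit, since the lowest such RPM ratio was 4.78. The same held for scaling to listed reads, which makes ratios 1.34 times as large. It also held without the top miRNA of each library (0.667 times). In all these settings the members' median log2 ratio, 4.82 by RPM, stayed within its interval. DESeq2 size factors on the listed rows shift every log2 ratio by -2.73 and set the median listed miRNA near equality. With them the members' median was 2.10 and 8 members stayed called, a count given here without a background share. The 3 lost were miR-127-5p (log2 ratio 0.14), miR-434-5p (0.32) and miR-431-5p (0.91), and the interval of miR-127-5p, -0.38 to 0.71, included equality. The authors' scale shifts log2 ratios by -1.25. The members' share of reads was 87.9-fold higher in the mutant with listed reads as the denominator and 24.5-fold higher without miR-127-3p. The 3p share of the members' reads, 99.6% in the mutant and 97.3% in the wild type, was 93.9% in the mutant and 83.7% in the wild type without miR-127-3p, and 99.7% in the mutant in hairpins with both strands listed. The share of miR-127-3p was 96.4% in the mutant and 88.9% in the wild type without miR-434-3p, and 96.8% in the mutant and 90.4% in the wild type in hairpins with both strands listed, sums that hold fewer strands by construction. The log2 odds ratios of mir-127, mir-434 and mir-337 kept direction and an interval below 0 with 0 or 1 added. A minimum of 10 or 50 reads per strand, summed over both libraries, removed none of these hairpins. It left their values unchanged and so tested nothing. Of the 11 members, 7 had fewer than 50 wild-type reads, which limits the precision of their ratios. No paired analysis was possible because each genotype has 1 library and no test was run.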
